A study of Mus musculus with 12 samples.

Results

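The baseline microRNA (miRNA) repertoire of the mouse amygdala was described from the control (C) libraries, which were 3 of the 12 small RNA libraries of the series. They were chosen by their label alone, and C replicates 1, 2 and 3 are given one by one throughout. The series profiled RNA after fear training in 4 groups, of which F was fear memory formation, E was extinction and RE was retrieval-extinction. All animals were male C57BL/6J mice, and the C mice were 10 weeks old. As unshocked controls for F, these mice were placed through its conditioning sessions but received no foot shock, and the 2 groups were dissected at matched times. The basolateral amygdala was dissected from coronal slices, so each library is of mixed brain cells, and the labels name 3 separate samples. A design note of the series calls the profiles retinal, whereas the sample labels give amygdala; levels of retina-linked miRNAs are given with the cell type lists.

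A miRNA is cut from a hairpin transcript, first in the nucleus by Drosha and then in the cytoplasm by Dicer, and 1 strand of the resulting duplex is usually loaded into an Argonaute protein. The loaded strand is named 5p or 3p by the hairpin arm it comes from. It pairs with messenger RNAs mainly through its seed, bases 2 to 8, so miRNAs with the same seed form a family with largely shared targets. Many hairpins lie in clusters that are transcribed together, and the brain expresses an unusually large cluster from the maternal copy of the imprinted Dlk1-Dio3 region.

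The table held 1060 distinct entries, 753 annotated mouse miRNAs and 307 predicted ones, after entries with the same sequence and counts were kept once. The C libraries held 1497748, 1694940 and 1490449 counts in C replicates 1, 2 and 3. A share below is a percent of these counts, not of all reads of a library. At this depth the 95% Wilson interval of any share was within 0.0803 percentage points of it, and a count of 0 allowed up to 3 counts, or at most 0.000201% of a library. Both limits cover counting error only, because reads amplified by PCR without molecular identifiers are not independent molecules. Small RNA libraries also capture some sequences more readily than others, so a rank is of counts and not of molecules in the cell.

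C replicate 2 stood apart from the other control libraries, so the main means are also given without it. Over the 365 entries with at least 10 counts in every C library, log2 shares correlated with Pearson's r of 0.994 between C replicates 1 and 3. The value was 0.934 between C replicates 1 and 2 and 0.945 between C replicates 2 and 3. These correlations are across entries of the same libraries and are descriptions. Only 7 of the 365 entries differed by over 2-fold between C replicates 1 and 3, against 138 between C replicates 2 and 1 and 133 between C replicates 2 and 3. The share of counts that would have to move to other entries to make the libraries alike was 7.54% for C replicates 1 and 3, 30.3% for C replicates 1 and 2 and 25.8% for C replicates 2 and 3. C replicate 2 also had the most counts, and what set it apart was not tested. With 3 libraries, of which 1 stands apart, the SD values below mostly express the distance of C replicate 2 from the others.

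The sequences that carry most of the counts are shown here because the family results rest on their seeds and the predicted entries on their last bases. All are in RefSeq's mouse table for GRCm38.p6 except the predicted entries, which come from the deposited table. Capitals mark the seed, and sequences run 5′ to 3′. Members of a family stand together, the let-7 family first.
let-7g-5p: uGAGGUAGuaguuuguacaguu
let-7i-5p: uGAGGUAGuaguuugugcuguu
let-7f-5p: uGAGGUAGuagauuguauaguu
let-7c-5p: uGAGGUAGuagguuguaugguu
let-7a-5p: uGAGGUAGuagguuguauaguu
let-7b-5p: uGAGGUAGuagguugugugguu
let-7e-5p: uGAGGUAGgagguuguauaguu
let-7d-5p: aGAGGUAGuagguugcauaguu
miR-148a-3p: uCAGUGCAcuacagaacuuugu
miR-148b-3p: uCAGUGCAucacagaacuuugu
miR-128-3p: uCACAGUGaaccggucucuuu
miR-127-3p: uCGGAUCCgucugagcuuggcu
miR-381-3p: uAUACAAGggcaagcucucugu
miR-26a-5p: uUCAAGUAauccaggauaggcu
miR-30a-5p: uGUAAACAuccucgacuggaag
miR-30c-5p: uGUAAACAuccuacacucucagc
miR-136-5p: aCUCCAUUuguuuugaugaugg
miR-9-5p: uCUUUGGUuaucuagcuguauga
predicted entry over miR-9-5p: uCUUUGGUuaucuagcuguaug
miR-7a-5p: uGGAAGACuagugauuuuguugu
predicted entry over miR-7a-5p: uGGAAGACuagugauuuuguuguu
miR-434-5p: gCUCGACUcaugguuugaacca
predicted entry over miR-434-5p: gCUCGACUcaugguuugaacc
miR-434-3p: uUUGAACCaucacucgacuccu

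A handful of these sequences held most of the repertoire. The 10 most abundant entries of each library took 63.5, 56.3 and 61.8% of the counts of C replicates 1, 2 and 3, which is 60.5 ± 3.79% (SD, n = 3) and 62.7% without C replicate 2. It took 6, 8 and 7 entries to reach 50% of the counts and 46, 53 and 47 to reach 90%. Entries above 1% numbered 19, 21 and 19. At the other end, 275 of the 1060 entries had 0 counts in every C library, 123 of them annotated. C replicate 2, which had the most counts, also had the longest tail. It had 670 entries counted at least once, against 601 in C replicate 1 and 623 in C replicate 3. In 48 entries C replicate 2 alone reached 10 counts, against 5 for C replicate 1 and 4 for C replicate 3. The part of depth in these numbers was not tested.

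let-7g-5p led by mean share, with 9.51, 12.9 and 11.2% of the counts of C replicates 1, 2 and 3. It belongs to the let-7 family, known for timing differentiation, and its hairpin lies in an intron of Wdr82 at chr9:106178840-106178927 (GRCm38, plus strand). miR-148a-3p, of a family known to target the DNA methyltransferase Dnmt1, ranked first in C replicates 1 and 3 with 14.5 and 12.7% but ranked 12 in C replicate 2 with 2.12%. Its hairpin lies outside any annotated gene of its strand, at chr6:51269812-51269910 on the minus strand. let-7i-5p held 7.75, 6.45 and 7.97% and kept rank 3 or 4 in each library. Ranks near the top were thus shared except for a few entries that C replicate 2 moved.

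miR-128-3p, a brain-enriched miRNA that restrains neuronal excitability in mice, held 5.87, 4.81 and 6.25% in C replicates 1, 2 and 3. It is made from introns of R3hdm1 and Arpp21, and its 2 hairpins give the same mature sequence, so their outputs cannot be told apart. miR-127-3p, transcribed opposite Rtl1 and known to act on that imprinted gene's messenger, held 5.72, 6.15 and 4.96%. Both stayed among the first 6 in every library. miR-381-3p, from the same imprinted region, held 7.99, 1.805 and 5.06%, so it ranked 3 and 5 in C replicates 1 and 3 but 14 in C replicate 2. let-7f-5p went the other way with 4.08, 8.34 and 4.81%, ranking 2 in C replicate 2 and 7 elsewhere. miR-26a-5p, made within the Ctdsp phosphatase genes, held 3.18, 3.96 and 3.14% and let-7c-5p held 1.84, 4.51 and 2.11%. The tenth place by mean share was taken by the predicted entry over miR-9-5p, and miR-9-5p itself, a miRNA of neural progenitors and neurons, was next with 2.41, 2.79 and 2.73%.

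**Figure D1:**
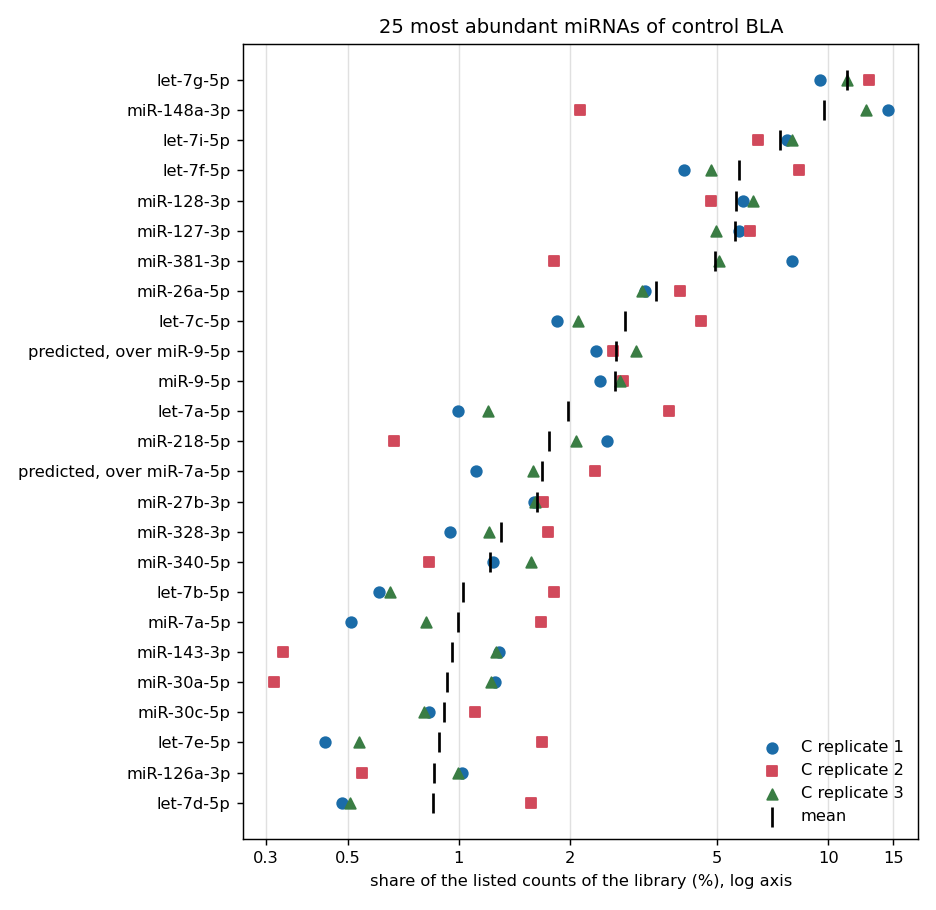
Share of counts (percent of the library's miRNA counts, log axis) of the 25 most abundant entries by mean share, 1 symbol for each C library and a bar at the mean. C replicates 1 and 3 lie close together for nearly all entries, whereas C replicate 2 is far lower for miR-148a-3p (2.12%, against 14.5 and 12.7%) and higher for let-7a-5p (3.72%, against 0.994 and 1.20%).

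Further down, miR-328-3p held 0.947, 1.74 and 1.20% in C replicates 1, 2 and 3, and miR-340-5p, from an intron of Rnf130, held 1.23, 0.830 and 1.57%. miR-218-5p, from introns of the axon guidance genes Slit2 and Slit3, held 2.51, 0.669 and 2.07%. Both of the last named were thus lowest in C replicate 2. miR-100-5p and miR-99a-5p, which share a seed, were steady by share in comparison. The values were 0.685, 0.754 and 0.782% for miR-100-5p and 0.586, 0.652 and 0.738% for miR-99a-5p.

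Grouping by seed brought the repertoire down to a few families. The 1060 entries had 875 seeds, 744 of them carried by 1 entry, and 14 families had a mean share of at least 1%. The 5 largest families by mean share were those of let-7, miR-148/152, miR-128, miR-127 and miR-9. They held 57.1, 60.1 and 59.3% of the counts of C replicates 1, 2 and 3 (58.8 ± 1.54%, SD, n = 3, and 59.4% without C replicate 2). The small spread of this sum hides opposite moves, because let-7 was highest and miR-148/152 lowest in C replicate 2. Between 3 and 4 families sufficed for 50% of the counts.

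The let-7 family alone held 25.7, 41.1 and 29.1% in C replicates 1, 2 and 3 (32.0 ± 8.09%, SD, n = 3), and 27.4% on average without C replicate 2. It had 11 entries, 9 of them with at least 10 counts in every library. Their balance differed between libraries: let-7i-5p made up 30.1% of the family in C replicate 1 and 27.4% in C replicate 3, but 15.7% in C replicate 2. let-7g-5p made up 36.9, 31.4 and 38.6%. let-7f-5p made up 20.3% in C replicate 2, against 15.8 and 16.5% in C replicates 1 and 3, and less abundant members were also higher there. let-7a-5p had 0.994, 3.72 and 1.20% of all counts, let-7b-5p 0.608, 1.81 and 0.652%, let-7e-5p 0.435, 1.68 and 0.535%, and let-7d-5p 0.482, 1.57 and 0.508%. The printed sequences of these members differ by a few bases outside the seed, and counts of near-identical members can be split unevenly by mapping, so their balance is uncertain.

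The miR-148/152 family came second at 15, 2.59 and 13.3%, nearly all of it miR-148a-3p. Its other members were also lowest in C replicate 2 but by less, since miR-148b-3p had 0.4503, 0.426 and 0.517% of counts and miR-152-3p 0.0606, 0.0379 and 0.0610%. As a result miR-148b-3p made up 16.5% of the family in C replicate 2, against 3.00 and 3.90% in C replicates 1 and 3. The families of miR-128-3p and miR-127-3p followed, each with 1 entry.

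The miR-9 family, formed by miR-9-5p and the predicted entry over it, held 4.77, 5.40 and 5.75% in C replicates 1, 2 and 3. The miR-7 family, whose members bind the circular RNA Cdr1as in brain, held 2.10, 5.74 and 3.11% and was thus highest in C replicate 2. The miR-30/384 family held 3.32, 2.42 and 3.35% with 6 members above 10 counts everywhere, but its leader changed. miR-30a-5p made up 37.7 and 36.4% of it in C replicates 1 and 3 and 13.1% in C replicate 2, where miR-30c-5p made up 45.6%, against 24.96 and 24.03%. The miR-99/100 family, with 1.59, 1.91 and 1.81%, and miR-27b-3p, with 1.60, 1.69 and 1.60%, were among the steadiest by share.

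**Figure D2:**
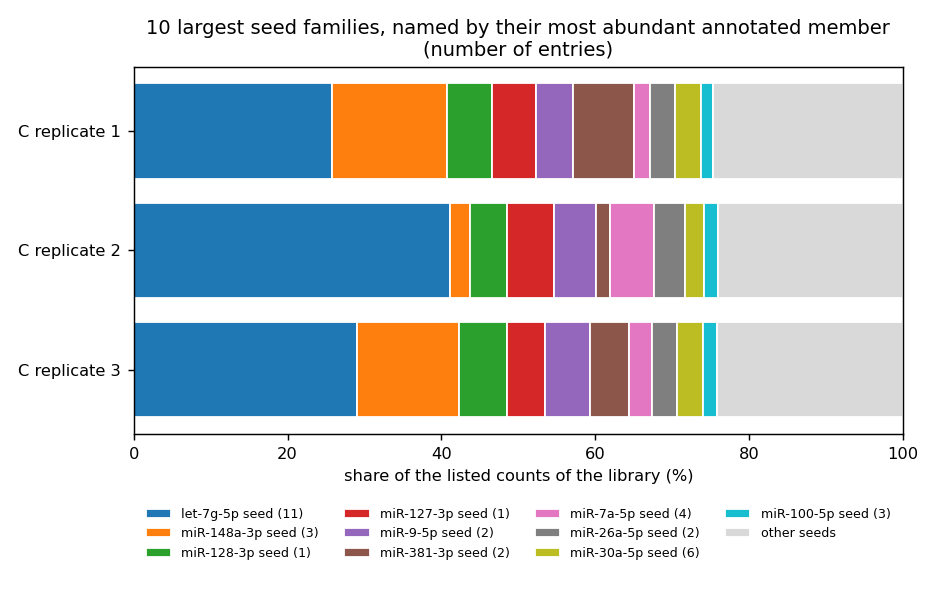
Share of the listed miRNA counts (percent) in the 10 largest seed families, as stacked bars with 1 bar for each C library; families are named by their most abundant annotated member, and grey is all other seeds. The let-7 family leads in every library, with 41.1% in C replicate 2 against 25.7 and 29.1% in C replicates 1 and 3, and the miR-148/152 family drops to 2.59% in C replicate 2.

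Genomic position was known for 567 of the 568 annotated hairpins, and hairpins within 10 kb of each other on 1 strand were counted as 1 cluster. There were 53 clusters with more than 1 hairpin, holding 232 hairpins. They gave 37.5, 46.1 and 35.2% of the counts of C replicates 1, 2 and 3 (39.6 ± 5.77%, SD, n = 3), and 36.3% without C replicate 2. Counts of a mature miRNA with several hairpins were divided equally among them, which touches 28.0 ± 5.18% of counts, let-7f-5p, let-7a-5p and miR-128-3p among them.

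The Dlk1-Dio3 region on chromosome 12 was the largest source. It runs from Dlk1 to Dio3, genes for a Notch-like ligand and a thyroid hormone deiodinase, and its miRNAs lie along the maternally expressed noncoding RNAs Meg3, Rian and Mirg. Its 51 hairpins and 92 mature miRNAs held 19.3, 14.3 and 15.1% in C replicates 1, 2 and 3 (16.3 ± 2.70%, SD, n = 3), and 17.2% without C replicate 2. Most of this came from miR-127-3p and miR-381-3p. The cluster of 34 hairpins around Mirg, at chr12:109709060-109747960, held 10.9, 5.43 and 7.80%, and the cluster of 13 hairpins around Rtl1, at chr12:109563692-109595388, held 7.80, 8.36 and 6.73%.

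By share, the low total of C replicate 2 rested on miR-381-3p, with 7.99, 1.805 and 5.06% in C replicates 1, 2 and 3. From either other library to C replicate 2, miR-381-3p fell by more percentage points than the whole region did. Most members with enough counts to compare ran the other way by share. Of the region's 59 mature miRNAs with at least 10 counts in every library, 42 had a higher share in C replicate 2 than in both other libraries and 12 a lower one. Over all 365 such entries the same counts were 217 (59.5%) and 115 (31.5%). These splits depend on scaling: with TMM factors of edgeR they were 30 and 22 in the region and 160 and 174 over all entries, and with DESeq2 size factors 30 and 21, and 167 and 167. miR-434-3p had 0.427, 1.39 and 0.413%, miR-433-3p 0.131, 0.420 and 0.145%, and miR-382-5p 0.109, 0.374 and 0.129%. miR-136-5p, which lies within 1 kb of miR-434 on the same strand, had 1.05, 0.114 and 0.838% and was thus the opposite case. The split also ran between arms of 1 hairpin, since miR-434-5p had 0.304, 0.0969 and 0.225% and was thus low where miR-434-3p was high. By comparison, miR-300-3p (0.681, 0.493 and 0.599%) and miR-379-5p (0.252, 0.235 and 0.239%) differed less between libraries.

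Outside that region, clustered hairpins held 18.2, 31.8 and 20.01%, and let-7 members led the next clusters. The cluster of let-7f-1, let-7a-1 and let-7d at chr13:48536012-48538272 (minus strand) held 3.09, 7.69 and 3.58%. The pair of let-7f-2 and miR-98 in an intron of Huwe1, at chrX:151912346-151913321, held 2.09, 4.28 and 2.47%. The miR-27b, miR-23b and miR-24-1 cluster at chr13:63300484-63301275 held 1.68, 1.77 and 1.68% and by share barely differed between libraries.

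By place, hairpins in introns of protein-coding genes on their own strand gave 28.7, 33.7 and 31.5% of the counts of C replicates 1, 2 and 3, let-7g, both mir-128 hairpins and mir-26a-1 among them. Hairpins with no annotated gene on their strand gave 46.2, 28.1 and 41.0%, which includes mir-148a, let-7i, mir-127 and mir-381. Exons of noncoding genes gave 8.13, 16.2 and 9.03%, let-7f-1 among them. Introns of noncoding genes gave 6.60, 10.0 and 7.21% and exons of protein-coding genes 5.14, 5.23 and 5.06%. Only the place holding mir-148a and mir-381 thus had a lower share in C replicate 2 than in both other libraries.

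**Figure D3:**
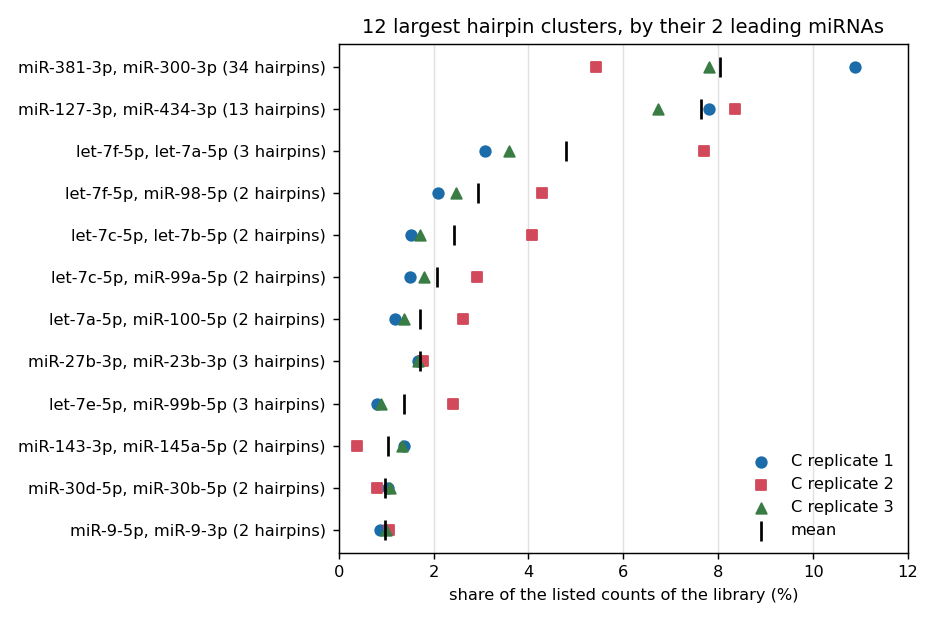
Share of the listed miRNA counts (percent) of the 12 largest clusters of hairpins within 10 kb, named by their leading mature miRNAs, 1 symbol for each C library and a bar at the mean. The cluster led by miR-381-3p is lowest in C replicate 2 (5.43%, against 10.9 and 7.80%), and those led by let-7 members are highest there. From either other library to C replicate 2, miR-381-3p alone falls by more percentage points than its cluster does.

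The 5p arms held 50.1, 67.4 and 54.8% of annotated counts in C replicates 1, 2 and 3 (57.4 ± 8.95%, SD, n = 3), and 52.5% without C replicate 2. Without the let-7 family, whose abundant members are all 5p, the shares were 31.4, 41.6 and 34.5%, so the remaining repertoire was mostly 3p. Counted by hairpin, the arms were nearly balanced. Of the 205 hairpins with both arms listed and at least 10 counts over both in every library, 54.1% had more on 5p in each library. The 5p arm led in every library in 103 hairpins, the 3p arm in 87, and in 15 the order differed between libraries. Most choices were strict: 115 hairpins had at least 90% on 1 arm in every library and 64 at least 99%, and the lesser arms together held 1.89, 2.23 and 1.92% of these counts.

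let-7g had the largest ratio of 5p to 3p counts with a pseudocount of 0.5, a measure that rises with depth, with 142362, 219144 and 167216 counts on 5p and 6, 0 and 2 on 3p. mir-381 had the smallest ratio, with 9, 10 and 4 counts on 5p and 119613, 30588 and 75348 on 3p. mir-99a was wholly on 5p, with 8783, 11046 and 10996 counts there and 0 on 3p in every library. For mir-495, near mir-381, no 5p count was found in any library beside 3470, 5248 and 3330 on 3p, which allows up to 3 counts in each. At the middle, 35 hairpins had between 20 and 80% on 5p in every library.

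Where the order differed, C replicate 2 stood alone in 11 of the 15 hairpins. This count is of entries as listed, and adding predicted forms removes some of these differences, as described with those forms. mir-129-2, of a miRNA enriched in neurons, had 67.7 and 65.2% on 5p in C replicates 1 and 3 and 27.8% in C replicate 2. As for clusters, counts of a mature miRNA with several hairpins were divided equally among them. miR-129-5p also comes from mir-129-1, so the values of mir-129-2 rest on that division. mir-30e had 70.8% in each of C replicates 1 and 3 and 39.4% in C replicate 2. mir-361 had 14.8 and 11.5%, against 50.3% in C replicate 2. mir-409, in contrast, was close to balance in every library with 45.7, 44.2 and 51.3%. The 5p percentage differed by over 10 points in 41 hairpins between C replicates 2 and 1, in 46 between C replicates 2 and 3, and in 14 between C replicates 3 and 1. Both arms of a hairpin come from 1 transcript, and what moved their balance was not tested.

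**Figure D4:**
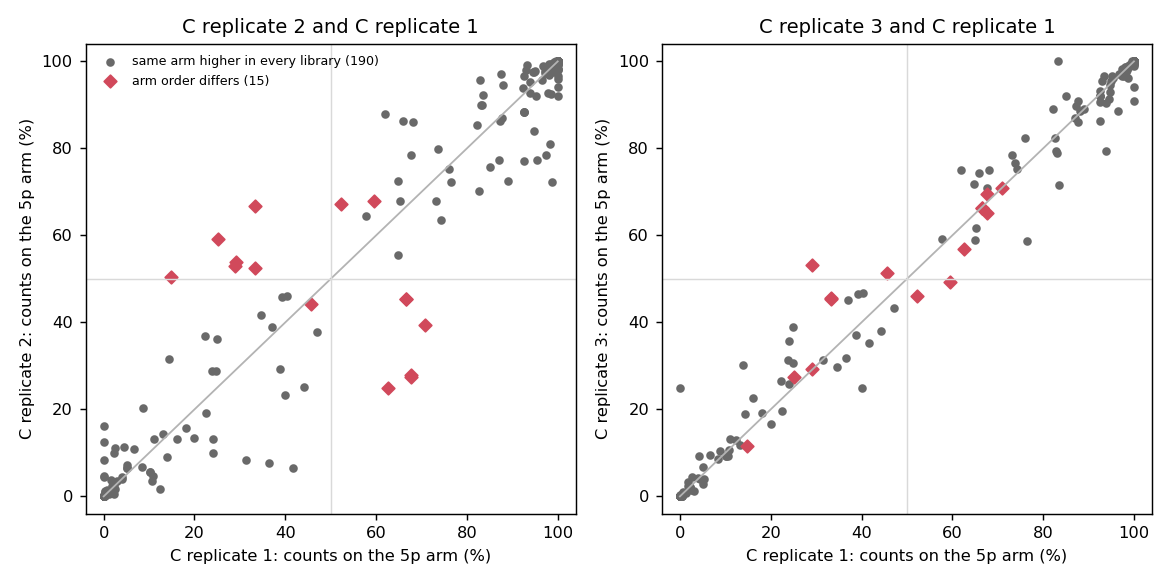
Percent of a hairpin's counts on its 5p arm in C replicate 2 (left panel) and C replicate 3 (right panel) against C replicate 1, 1 point for each of the 205 hairpins, with the 15 whose order differs as diamonds. Points lie closer to the diagonal on the right, where 14 hairpins differ by over 10 points, than on the left, where 41 do.

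Predicted entries held 5.19, 6.71 and 6.22% of counts in C replicates 1, 2 and 3 (6.04 ± 0.775%, SD, n = 3, and 5.71% without C replicate 2), and nearly all of this belonged to known miRNAs. Of the 307, 35 overlapped an annotated mature miRNA in sequence and held 5.97 ± 0.783%. The other 272 held 0.0754 ± 0.00974%. In 30 of the 35 the seed was that of the annotated entry, and the difference lay at the 3′ end. Listing such a form separately splits the counts of 1 miRNA over 2 entries, which lowers its rank.

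The predicted entry over miR-9-5p, on chromosome 13, lacks the last base of miR-9-5p and had 35293, 44316 and 45089 counts, against 36087, 47247 and 40652 for miR-9-5p. Together they would rank 7 by mean share rather than 11. The predicted entry over miR-7a-5p ends 1 base later and exceeded miR-7a-5p in each library, with 16624, 39665 and 23643 counts against 7634, 28258 and 12145. Combined, miR-7a-5p would rank 11 rather than 19, and miR-7b-5p likewise 18 rather than 37. In 18 of the overlapping pairs the predicted form had more counts than the annotated one in every library.

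For some miRNAs most counts stood under the predicted form. miR-338-5p, of a hairpin linked to oligodendrocytes, had 5, 18 and 5 counts under its own name and 846, 1252 and 815 under a predicted entry 1 base shorter. miR-330-5p had 114, 291 and 154 counts, against 2385, 1028 and 2566 for a form 2 bases shorter. Among the most abundant predicted entries, 16 overlapping pairs had at least 10 counts on both sides in every library. The ratio of predicted to annotated counts was lowest in C replicate 2 in 12 of these, and pairs of rarer predicted entries were not counted. Adding the forms together also moved arm choice. mir-434 had 41.6, 6.53 and 35.2% on 5p as listed and 70.8, 16.9 and 63.9% with the predicted entry over miR-434-5p added. C replicates 1 and 3 then favoured 5p and C replicate 2 favoured 3p. For some other hairpins the difference in order was lost. mir-24-2 had 67.7, 27.4 and 69.5% on 5p as listed and 40.0, 7.57 and 40.9% with the form of miR-24-3p added. mir-338, mir-199a-1 and mir-199a-2 likewise came to have the same leading arm in every library. mir-329 still differed, with 84.9, 44.7 and 80.4%.

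**Figure D5:**
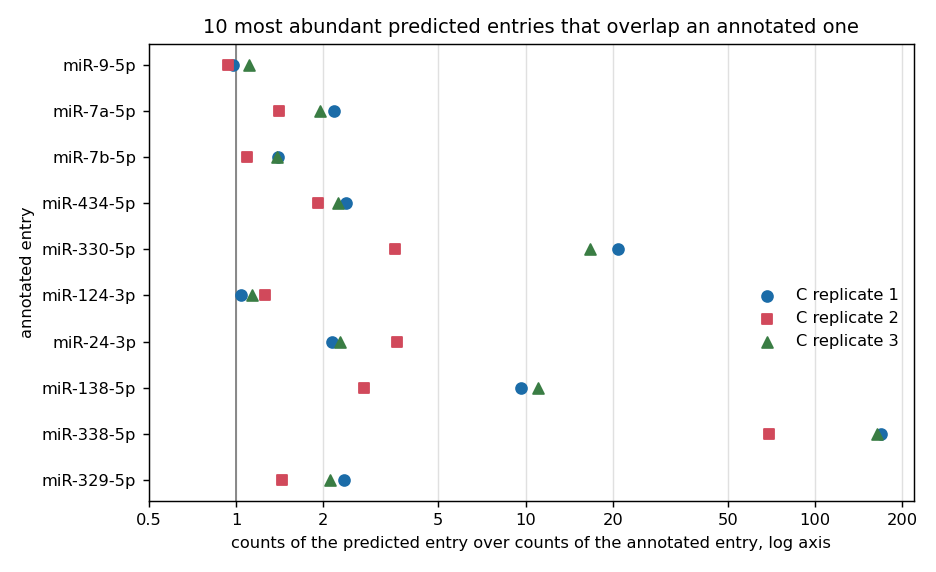
Counts of the 10 most abundant overlapping predicted entries divided by counts of the annotated entry each overlaps (log axis, vertical line at equal counts), 1 symbol for each C library. The ratio is near 1 for miR-9-5p (0.978, 0.938 and 1.11 in C replicates 1, 2 and 3) and is 169, 69.6 and 163 for miR-338-5p.

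Lists of miRNAs known from particular cell types were summed to check the tissue label. Fewer cells of a type and less of a miRNA per cell cannot be told apart in these samples. Neuron-enriched miRNAs, all 11 of them with at least 10 counts in every library, held 11.8, 9.43 and 12% in C replicates 1, 2 and 3. miR-128-3p and miR-9-5p made up most of it, and miR-218-5p came next. miR-124-3p, usually regarded as the main neuronal miRNA, had 1088, 2473 and 1039 counts and ranked 91, 69 and 96. Adding its predicted form brought it to 0.148, 0.330 and 0.149% of counts.

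Glial and vascular lists were smaller. The astrocyte list, the miR-29 family, held 0.511, 0.660 and 0.576%, but its members differed in direction, since miR-29a-3p had 0.329, 0.605 and 0.391% and miR-29b-3p 0.176, 0.0430 and 0.179%. The oligodendrocyte list held 0.338, 0.364 and 0.305%, nearly all of it miR-219a-2-3p, with 0.337, 0.362 and 0.303%. Of its 4 members, only that 1 had at least 10 counts in every library. The predicted entry over miR-338-5p, with 846, 1252 and 815 counts, was not part of the list. The endothelial list, which is miR-126a, held 1.05, 0.606 and 1.02%, and the mural cell list, led by miR-143-3p of vascular smooth muscle, held 1.37, 0.394 and 1.34%. Both vascular lists were thus lowest in C replicate 2. Their arms did not move together, however, as miR-126a-3p had 15312, 9246 and 14861 counts and miR-126a-5p had 347, 1030 and 317.

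Red cell miRNAs held 0.0549, 0.0297 and 0.0423%, led by miR-451a, and the microglia and leukocyte list held 0.110, 0.0992 and 0.110%, but its members split. miR-146a-5p had 1297, 702 and 1277 counts and miR-150-5p 277, 961 and 306, while miR-223-3p had 13, 6 and 15. The choroid plexus and ependyma list held 0.107, 0.366 and 0.128%, mostly miR-204-5p, and miR-211-5p was at 0 in every library. The endocrine list held 0.712, 2.51 and 1.12%, but miR-7a-5p and miR-7b-5p, which neurons also express, made up nearly all of it, and miR-375-3p had only 41, 123 and 48 counts. Choroid plexus and endocrine lists were therefore highest in C replicate 2, and the part of tissue makeup in its difference from the other libraries was not tested.

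Lists of tissues other than brain were small. The epithelial list held 0.0227, 0.0202 and 0.0256%, the muscle list 0.0949, 0.0595 and 0.0811%, nearly all of it miR-1a-3p, and the liver miRNA miR-122-5p had 8, 37 and 22 counts. The photoreceptor list, the miR-183 cluster that is abundant in retina, held 0.0302, 0.00602 and 0.0201%. These levels stand beside the design note without settling it, since a retina library was not analysed here. Activity-regulated miRNAs held 0.301, 0.379 and 0.274%, led by miR-132-3p, a target of the factor CREB, with 2766, 4975 and 2405 counts. Its 5 members split, with 3 highest in C replicate 2 by share and 2 lowest. The 2 lowest were miR-132-5p, with 389, 88 and 361 counts, and miR-212-5p, with 1063, 706 and 1035. miR-1298-5p, from an intron of the serotonin receptor gene Htr2c, had 6128, 2182 and 5733 counts. Of the 7 miRNAs found for that gene's introns, it alone was lowest in C replicate 2 by share. By the same measure 4 were highest there, miR-1264-3p (195, 517 and 212 counts) among them.

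The most abundant miRNAs shared features that no grouping above had used. Sequences starting with U held 87.3, 84.6 and 87.4% of counts in C replicates 1, 2 and 3 (86.5 ± 1.59%, SD, n = 3, and 87.4% without C replicate 2), although 45.3% of the entries start with U. Without the let-7 seed the value was 83.6, 76.6 and 83.0%. A 5′ U is the base that Argonaute proteins are known to hold best. Entries of 22 nt held 76.6, 75.8 and 75.5% of counts and were 47.5% of all entries. The share starting with U was lowest in C replicate 2 with and without let-7.

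Of the 100 most abundant entries, 20 had a share in C replicate 2 over 2-fold above both other libraries and 15 a share over 2-fold below both, whereas 0 differed by over 2-fold between C replicates 3 and 1. miR-125a-5p was the highest, at 5.11 times its share in C replicate 1 and 3.75 times that in C replicate 3, and miR-434-3p, let-7e-5p and let-7a-5p were each over 3 times their share in both. miR-136-5p was the lowest, at 0.109 and 0.136 times, followed by miR-148a-3p, at 0.146 and 0.167 times. miR-29b-3p, miR-30a-5p, miR-143-3p and miR-218-5p were also low. Across the 365 entries Spearman's rho of the ratio with GC content was 0.09, which is a description. Its median was 0.32 on the log2 scale.

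Directions of C replicate 2 are of shares, and they were also read under 2 other scalings chosen with its values in view. TMM factors shifted its log2 ratios by -0.42 and DESeq2 size factors by -0.34. The counts over 2-fold above and below then became 12 and 20 with TMM and 14 and 20 with DESeq2. Under all scalings the let-7 and miR-7 families and the choroid plexus and endocrine lists stayed highest in C replicate 2 as sums. Their members split too, since let-7i-5p was lowest there under every scaling and let-7g-5p was highest by share alone. miR-449a-5p of the choroid plexus list, with 22, 11 and 6 counts, was highest there under no scaling. The miR-148/152, miR-381, miR-128 and miR-30 families and the vascular, red cell, leukocyte, neuron-enriched and photoreceptor lists stayed lowest as sums, although members split. Of the 11 neuron-enriched miRNAs, 6 were highest in C replicate 2 under every scaling, miR-124-3p and miR-9-3p among them. So were miR-150-5p of the leukocyte list, miR-126a-5p of the endothelial list and miR-30b-5p, miR-30c-5p and miR-384-5p of the miR-30 family. miR-127-3p, miR-26a-5p, miR-27b-3p and the miR-99/100 family were highest in C replicate 2 by share and not under either scaling, and the activity-regulated, astrocyte and oligodendrocyte lists also lost that place. Steadiness depended on scaling too, since the log2 ratio of miR-27b-3p was 0.08 by share, -0.34 with TMM and -0.26 with DESeq2.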

How the data were processed

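Small RNA libraries were made from TRIzol-extracted RNA of dissected amygdala. The authors trimmed and mapped the reads and deposited a table of raw counts per mature miRNA, annotated or predicted. The authors' normalized table was not used. The submitters' processing notes name CASAVA 1.8 and hg38, a human build, for these mouse samples; no source used here gives the miRNA reference release. Of 1169 lines, 109 repeated the sequence and counts of another and were kept once, leaving 1060. All 12 sample columns were mapped to a sample by name. Shares, seed families (bases 2 to 8), clusters (10 kb, GRCm38 positions) and arm shares were computed with Python 3.11.15 and pandas 2.3.3, and checked on simulated data. A predicted entry overlapped an annotated one when they shared at least 16 bases. Scaling alternatives used edgeR 4.0.16 and DESeq2 1.42.0 in R 4.3.3. No test was run, because only 1 group was described. Names and sequences of 653 of the 753 annotated entries matched RefSeq. Named miRNAs were the 25 most abundant, any other in the first 10 of a library, the leading members of the largest families and clusters, the most one-sided hairpins and up to 6 whose order differed, up to 4 leading members of each cell type list, the 3 most abundant predicted entries, and up to 6 highest and 6 lowest in C replicate 2; miR-124-3p, miR-9-3p, miR-338-5p, miR-330-5p, miR-382-5p, miR-223-3p, miR-211-5p, the miR-27b cluster and the arms of mir-434 were chosen after their values were seen. The members and lists were chosen with earlier results of these data known.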

Additional observations from a re-analysis of the deposited data

How the results depend on the processing

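Alternatives changed 1 choice at a time, and of the values for the main results 63 stayed within 1 SD (or within 1.5 times for a count) and 19 did not. This tally depends on the SD of each result. For the share of hairpins with more on 5p the SD was 0, so any change fell outside it. For the 5p share of counts the SD was 8.95, mostly from C replicate 2, so a change from 57.4 to 52.5% fell within it. Counting every line, repeats included, gave 51.0% for the 10 most abundant entries, 62.1% for the 5 largest families, 12.4% for Dlk1-Dio3, 4.67% for predicted entries, 88.5% for a first U and 53.7% for hairpins with more on 5p, because repeated lines are weighted more. A minimum of 50 counts left 240 entries. Annotated miRNAs alone gave 62.2% for the 5 largest families. Clustered hairpins held 53.5% at 50 kb and 27.1% without mature miRNAs of several loci. The share of hairpins with more on 5p was 54.5% with a minimum of 1 count, 56.5% with 50, 50.2% without several loci, and 53.6 to 54.8% with each C replicate left out. Predicted entries without an annotated overlap held 0.0754%. Alternatives added after seeing the data gave 35.9% for 5p arms without let-7 and 53.1% of hairpins on 5p with predicted forms added. No paired analysis was possible because 1 group was described. Depth limits only rare entries. A group of 3 libraries with 1 apart cannot show which profile is usual for control amygdala, and sequence-dependent capture was not measured.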
